A study of Mus musculus with 10 samples.

Results

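Larp1, 2610507I01Rik, Myo15, Grap, Atp1b2, Spns3 and Slfn9 are 7 genes that lie within 15 Mb of Trp53 on mouse chromosome 11. They were chosen by the log2 fold change and adjusted p between Trp53+/- and Trp53+/+ mice that carried Ddx41+/+, at a fold over 1.5 and an adjusted p under 0.05, so their values in that comparison are a description. In all, 9 genes within that window met this rule, and the other two, Irgm2 and Igtp, are given below as neighbours. The count table held 24421 genes, of which 11846 passed the filter on low counts, all 7 chosen genes among them, and 349 further tested genes lay within 15 Mb of Trp53.

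The data are RNA-seq of erythroid precursors from mouse bone marrow, sorted as CD71+Ter119+ (R2) cells from 10 transplant recipients, 1 library per mouse. Donor marrow was Ddx41+/+ Trp53+/+ (3 mice, numbered 10, 11 and 12), Ddx41+/- Trp53+/+ (2 mice, 32 and 34), Ddx41+/+ Trp53+/- (3 mice, 22, 23 and 24) or Ddx41+/- Trp53+/- (2 mice, 46 and 47). Every donor carried Rosa-CreERT2, a tamoxifen-activated recombinase expressed in most tissues, which removed the floxed Ddx41 allele, whereas the Trp53 knockout allele was constitutive. Recipients were irradiated BoyJ mice, a strain with intact Trp53, that received 1000000 marrow cells, then 1 mg tamoxifen on 5 days in each of 2 rounds, and were killed 8 weeks after the transplant. Donor ages and the number of donors per genotype are not given in the sources used here, so recipients of a genotype may share a donor, and genotype and donor then cannot be told apart. Residual host cells may also contribute Trp53+/+ reads.

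Trp53 encodes p53, a transcription factor that halts division or triggers death in stressed cells, and its loss relaxes a checkpoint that limits red cell production when ribosome assembly fails or DNA is damaged. A gene that lies near a targeted allele is inherited with it unless recombination separates the pair, so a genotype at Trp53 is also, in part, a genotype at its neighbours on the chromosome. The study's methods give C57BL/6N as the background on which its strains were kept, and Jackson as the supplier of the Trp53 knockout mice. The strain in which the knockout allele was first made is not stated there. Counts per gene hold no sequence variants, so which stretch of chromosome 11 travelled with the Trp53 knockout allele, and the part that inherited variants play in any value below, was not tested.

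On the GRCm38 build, 4 of the genes lie before Trp53 and 3 after it. Larp1 is at chr11:58009064-58062034 on the plus strand, 2610507I01Rik at chr11:59199836-59202385 on the minus strand, Myo15 at chr11:60469339-60528369 on the plus strand and Grap at chr11:61653265-61672784 on the plus strand. These lie 11.5, 10.4, 9.05 and 7.91 Mb before Trp53, which is at chr11:69580359-69591873 on the plus strand. Atp1b2 at chr11:69599736-69605942 begins 7.86 kb beyond the end of Trp53 and points toward it from the minus strand. Spns3 at chr11:72494919-72550506 and Slfn9 at chr11:82978390-82991830, both on the minus strand, lie 2.90 and 13.4 Mb beyond Trp53. All are protein-coding except 2610507I01Rik, which is annotated as a processed transcript.

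The sequences around the start of 3 genes are shown because both sets of mice gave values of like size for these genes, and because their starts differ in composition. Each runs 5′ to 3′ from 250 bases before to 50 bases after the RefSeq start on GRCm38.p6, and capitals mark GGGCGG, the core of a GC box, or its complement CCGCCC.
Myo15, chr11:60469089-60469388, plus strand: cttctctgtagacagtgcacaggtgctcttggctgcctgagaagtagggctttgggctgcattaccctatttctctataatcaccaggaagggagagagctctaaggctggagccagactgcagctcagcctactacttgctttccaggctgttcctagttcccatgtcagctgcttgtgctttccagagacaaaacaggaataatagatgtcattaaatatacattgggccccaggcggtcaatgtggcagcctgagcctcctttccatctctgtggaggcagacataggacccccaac
2610507I01Rik, chr11:59202382-59202681, minus strand: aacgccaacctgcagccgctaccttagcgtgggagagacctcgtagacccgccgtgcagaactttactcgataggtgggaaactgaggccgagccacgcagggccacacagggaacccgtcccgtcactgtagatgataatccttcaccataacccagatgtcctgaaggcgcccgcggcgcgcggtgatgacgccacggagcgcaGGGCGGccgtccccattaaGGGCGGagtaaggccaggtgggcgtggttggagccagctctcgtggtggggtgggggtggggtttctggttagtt
Larp1, chr11:58008814-58009113, plus strand: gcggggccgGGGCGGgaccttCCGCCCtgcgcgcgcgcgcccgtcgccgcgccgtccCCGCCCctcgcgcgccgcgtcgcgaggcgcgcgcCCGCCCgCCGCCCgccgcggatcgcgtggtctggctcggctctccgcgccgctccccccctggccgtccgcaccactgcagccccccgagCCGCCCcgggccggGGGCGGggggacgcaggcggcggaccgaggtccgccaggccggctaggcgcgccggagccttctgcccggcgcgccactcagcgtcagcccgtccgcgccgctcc

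The Myo15 window held 1 CG pair and no GGGCGG on either strand. The 2610507I01Rik window held 25 CG pairs and 2 GGGCGG matches, and the Larp1 window held 61 CG pairs and 7 matches, with 85.3% of its bases G or C against 51.0% for Myo15. The median of the 32851 mouse promoters of the same length was 7 CG pairs and 52.7% G or C, and 35.7% of them held GGGCGG on either strand. The fourth gene with a RefSeq promoter entry, Slfn9, held 6 CG pairs and 1 match. Atp1b2, Grap and Spns3 had no entry. TATAAA was in none of the 4 windows and in 13.6% of all promoters, and the p53 half-site, searched by its usual consensus with no mismatch, was in none of the 4, once in the Trp53 window and in 8.36% of all promoters. These matches describe letters only.

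Libraries held 7866648 to 20283930 counts, and values below are CPM, each gene's counts scaled to the size of its library after TMM normalization. The erythroid identity of the sort was visible in Slc4a1 (25470 to 30512 CPM), Alas2 (7007 to 8440 CPM) and Gata1 (391 to 455 CPM), whereas the 4 adult globin genes, which come in near-identical copies, were at 0 to 1.28 CPM in every library. Ddx41 was at 12.5 to 16.5 CPM in the 4 Ddx41+/- mice and at 21.9 to 26.6 CPM in the other 6. In the mice that chose the genes, 108 of 11846 genes (0.912%) passed the fold and adjusted p limits, 100 higher (0.844%) and 8 lower (0.0675%) in Trp53+/-, and of the 7 genes that this comparison chose, 4 were higher and 3 lower. In the Ddx41+/- mice, which played no part in the choice, 20 genes passed (0.169%), 14 higher (0.118%) and 6 lower (0.0507%). The same fit across all 10 mice gave both comparisons, so they share 1 estimate of the spread, but no mouse is in both.

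Trp53 itself was lower in every Trp53+/- mouse. It was at 57.4, 57.4 and 58.9 CPM in the Ddx41+/+ Trp53+/+ mice and at 59.2 and 68.1 CPM in the Ddx41+/- Trp53+/+ mice. The corresponding Trp53+/- mice were at 43.1, 41.8 and 44.5 CPM and at 40.3 and 46.2 CPM. No Trp53+/- mouse reached a Trp53+/+ mouse, and the log2 fold change was -0.42 (SE 0.09) with Ddx41+/+ and -0.55 (SE 0.11, adjusted p = 0.0630) with Ddx41+/-. These are levels 1.34-fold and 1.47-fold lower. The extent of the knockout allele is not given and the counts sum every exon, so transcripts of the targeted allele may still be counted.

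With Ddx41+/-, 2 of the 7 genes passed the limits again (28.6%, against 0.169% of all genes tested): Myo15 was higher and Atp1b2 was lower in Trp53+/-. The 2 genotypes had separate ranges for 5 of the 7, against 37.3% of all genes. Slfn9 was among these 5, but in the direction opposite to that of the first comparison. Of the 7, 4 had an unadjusted p under 0.05, against 5.41% of all genes. The direction was that of the first comparison in 6 of 7, against 57.8% of all genes, and Slfn9 was the exception. Among these 6, Grap (log2 fold change 0.29, SE 0.42) and Spns3 (0.03, SE 0.42) had values smaller than their SE, so their direction is uncertain. Across both sets of mice, 4 genes (Myo15, Atp1b2, Larp1 and 2610507I01Rik) had all 5 Trp53+/- mice on one side of all 5 Trp53+/+ mice. This held for 238 of the 11846 genes (2.01%) and for 15 of the 349 neighbours (4.3%). Of these 10 mice, 6 were the ones that chose the genes. The other 3 genes (Slfn9, Grap and Spns3) and also Atp1b2 had the 3 Ddx41+/+ Trp53+/+ mice on one side of the other 7 mice, as did 4.56% of all genes. Both this pattern and that of 5 against 5 mice include the values that chose the genes, so these counts are a description.

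**Figure D1:**
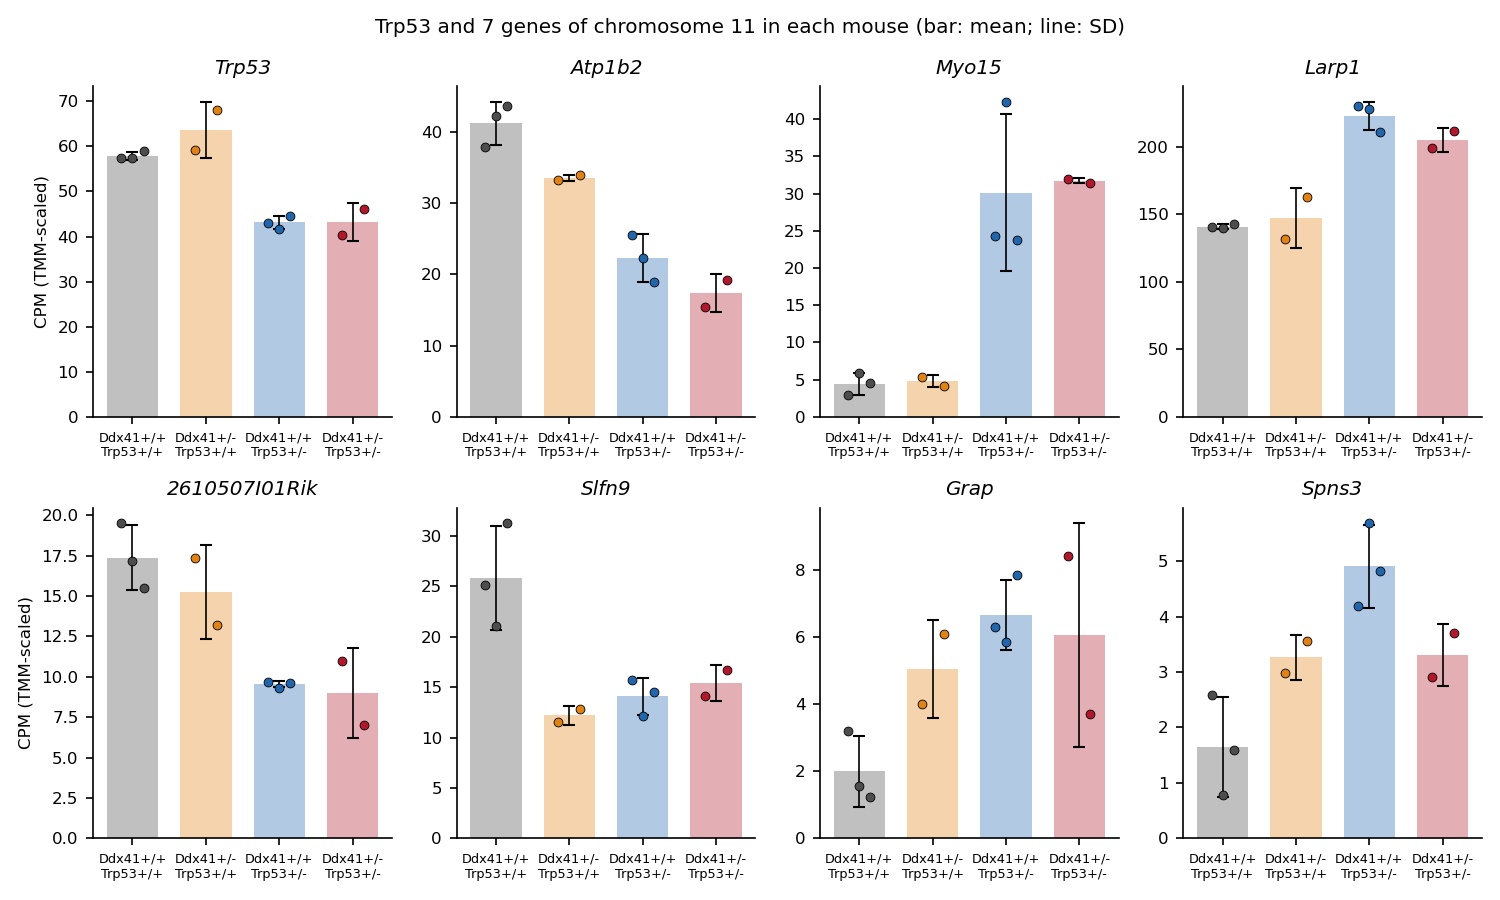
CPM (TMM-scaled, linear axes from 0) of Trp53 and the 7 genes in each of the 10 mice (points) by donor genotype, with the mean (bar) and SD (line). Myo15, Larp1, Atp1b2, 2610507I01Rik and Trp53 separate the Trp53 genotypes whatever the Ddx41 genotype. For Slfn9, Grap, Spns3 and also Atp1b2, the Ddx41+/+ Trp53+/+ mice lie on one side of all others. The nearest values are close for Grap (3.22 against 3.70 CPM) and Spns3 (2.58 against 2.90 CPM).

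Myo15 encodes an unconventional myosin known from the sensory hair cells of the inner ear, where it carries cargo to the tips of stereocilia. It was at 2.95, 5.93 and 4.50 CPM in the Ddx41+/+ Trp53+/+ mice, from 56, 122 and 65 reads, and at 24.3, 42.3 and 23.7 CPM in the Ddx41+/+ Trp53+/- mice, from 243, 685 and 408 reads. In the Ddx41+/- mice it was at 5.35 and 4.19 CPM with Trp53+/+ and at 31.95 and 31.5 CPM with Trp53+/-. The lowest Trp53+/- mouse was thus at 23.7 CPM and the highest Trp53+/+ mouse at 5.93 CPM. The log2 fold change with Ddx41+/+, which chose the gene, was 2.75 (SE 0.25). With Ddx41+/- it was 2.70 (SE 0.31, adjusted p = 2.30e-04, edgeR quasi-likelihood test), a 6.49-fold increase, and it passed the limits under all 16 other settings tried, at 2.57 to 2.93. An exact permutation test of 2 against 2 mice cannot give a two-sided p below 0.333, the value for Myo15. In a sorted population, more cells that express a gene and more RNA per cell cannot be told apart.

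The genes on either side of Myo15 did not pass the limits. Drg2, which encodes a GTP-binding protein and ends 0.585 kb before Myo15 begins, had log2 fold changes of 0.37 (SE 0.14) with Ddx41+/+ and 0.19 (SE 0.17, adjusted p = 0.966) with Ddx41+/-. Alkbh5, an RNA demethylase that removes N6-methyladenosine and begins 8.01 kb after Myo15 ends, had values of 0.42 (SE 0.08) and 0.35 (SE 0.10, adjusted p = 0.419). All 5 Trp53+/- mice had more Alkbh5 (190 to 210 CPM) than any Trp53+/+ mouse (131 to 168 CPM), though the fold was under 1.5 in both comparisons.

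Atp1b2 encodes the beta 2 subunit of the sodium-potassium pump, and it is the tested gene that follows Trp53 on the chromosome. It was at 37.9, 42.2 and 43.6 CPM in the Ddx41+/+ Trp53+/+ mice and at 25.6, 22.3 and 18.9 CPM in the Ddx41+/+ Trp53+/- mice. In the Ddx41+/- mice it was at 33.3 and 33.9 CPM with Trp53+/+ and at 15.5 and 19.3 CPM with Trp53+/-. Every Trp53+/- mouse was below every Trp53+/+ mouse, and within Trp53+/+ both Ddx41+/- mice were below the Ddx41+/+ mice. In the mice of the choice the log2 fold change was -0.90 (SE 0.13). With Ddx41+/- it was -0.95 (SE 0.16, adjusted p = 0.0125), a 1.93-fold decrease. This call rested on each of 3 mice: without mouse 32, 34 or 46 the log2 fold change was -0.96, -0.94 or -0.80, and the adjusted p was 0.165, 0.168 or 0.281. The genes beyond this pair showed no such difference. Fxr2, an RNA-binding relative of the fragile X protein that begins 27.0 kb after Atp1b2, was at 0.04 (SE 0.07) and 0.09 (SE 0.09, adjusted p = 0.974) on the log2 scale. Wrap53, which is transcribed away from Trp53 from 104 bases before it, was at -0.10 (SE 0.12) and -0.17 (SE 0.14, adjusted p = 0.959).

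Larp1 encodes an RNA-binding protein that holds back translation of mRNAs for ribosomal proteins when mTORC1 is inactive. It was at 140, 140 and 143 CPM in the Ddx41+/+ Trp53+/+ mice and at 230, 228 and 211 CPM in the Ddx41+/+ Trp53+/- mice. The Ddx41+/- mice were at 132 and 163 CPM with Trp53+/+ and at 199 and 212 CPM with Trp53+/-. The genotypes at Trp53 were separate, and mouse 34 was the nearest of the Trp53+/+ mice to the Trp53+/- range. Its log2 fold change was 0.66 (SE 0.08) in the mice of the choice and 0.49 (SE 0.10, 95% CI 0.28 to 0.69, adjusted p = 0.0595) with Ddx41+/-, where it missed both limits. Without mouse 34, which had the fewest reads of all libraries, it was 0.64 (adjusted p = 0.0179) and passed both, and without mouse 32, the other mouse of that genotype, it was 0.34 (adjusted p = 0.641). Over the 16 other settings the adjusted p ran from 4.16e-04 to 0.641 and was under 0.05 in 5. Of the 75-base stretches of the longest Larp1 transcript, 0.963% also occur in Gm16425.

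2610507I01Rik is a long non-coding transcript. Its start lies 101 bases from that of Mrpl55, a mitochondrial ribosomal protein gene on the opposite strand, and the 2 are transcribed away from each other. The transcript was at 19.5, 17.2 and 15.5 CPM in the Ddx41+/+ Trp53+/+ mice and at 9.70, 9.33 and 9.60 CPM in the Ddx41+/+ Trp53+/- mice. The Ddx41+/- mice had 17.3 and 13.2 CPM with Trp53+/+ and 10.98 and 7.01 CPM with Trp53+/-. No Trp53+/- mouse reached the Trp53+/+ range. The log2 fold change was -0.87 (SE 0.18) in the mice of the choice and -0.78 (SE 0.22, 95% CI -1.25 to -0.31, adjusted p = 0.349) with Ddx41+/-, where it did not pass. Mrpl55 was lower on the same side by less: -0.37 (SE 0.15) and -0.39 (SE 0.19, adjusted p = 0.915) on the log2 scale, with 8.85 to 11.05 CPM in Trp53+/- mice and 11.4 to 14.99 CPM in Trp53+/+ mice.

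Slfn9 belongs to the Schlafen family, named for its effect on thymocyte growth, and lies among its relatives Slfn5 and Slfn8. It was at 25.1, 21.0 and 31.3 CPM in the Ddx41+/+ Trp53+/+ mice and at 15.7, 12.1 and 14.5 CPM in the Ddx41+/+ Trp53+/- mice. In Ddx41+/- mice it was at 11.6 and 12.8 CPM with Trp53+/+ and at 14.1 and 16.7 CPM with Trp53+/-. The high values were those of the 3 Ddx41+/+ Trp53+/+ mice alone, and the 2 Ddx41+/- Trp53+/+ mice were near the lower end of the Trp53+/- values. For Slfn9 the log2 fold change was -0.87 (SE 0.16) in the mice of the choice and 0.35 (SE 0.20, 95% CI -0.08 to 0.78, adjusted p = 0.946) with Ddx41+/-, in the opposite direction. Between Ddx41+/- and Ddx41+/+ mice with Trp53+/+, a comparison that shares the 3 high mice with the choice, it was -1.09 (SE 0.19). Slfn8 and Slfn5 had log2 fold changes of -0.36 (SE 0.27) and -0.30 (SE 0.21) with Ddx41+/+ and of 0.02 (SE 0.33) and -0.67 (SE 0.26) with Ddx41+/-, none of them called. Slfn9 shares 6.06% of its 75-base stretches with Slfn8 and Slfn10-ps, and its span holds Mir7679 on the same strand. Some of its reads may thus not be told from those of these genes, and the part of its counts affected was not tested.

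Grap encodes an adaptor protein related to Grb2 that acts downstream of antigen receptors in lymphocytes. It was at 3.22, 1.56 and 1.25 CPM in the Ddx41+/+ Trp53+/+ mice, from 61, 32 and 18 reads, and at 6.30, 5.87 and 7.86 CPM in the Ddx41+/+ Trp53+/- mice. The Ddx41+/- mice had 4.01 and 6.10 CPM with Trp53+/+ and 8.42 and 3.70 CPM with Trp53+/-, so the genotypes overlapped. Its log2 fold change was 1.72 (SE 0.36) in the mice of the choice and 0.29 (SE 0.42, 95% CI -0.60 to 1.19, adjusted p = 0.981) with Ddx41+/-. Without mouse 46 it turned to -0.42. The interval in the Ddx41+/- mice includes an increase of 2-fold.

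Spns3 belongs to the Spinster family of membrane transporters, whose relative Spns2, 5.01 kb away, exports sphingosine 1-phosphate. It was at 2.58, 0.78 and 1.59 CPM in the Ddx41+/+ Trp53+/+ mice, from 49, 16 and 23 reads, and at 4.20, 5.69 and 4.83 CPM in the Ddx41+/+ Trp53+/- mice. With Ddx41+/- it was at 2.98 and 3.56 CPM with Trp53+/+ and at 2.90 and 3.70 CPM with Trp53+/-, which overlap. The log2 fold change was 1.58 (SE 0.35) in the mice of the choice and 0.03 (SE 0.42, 95% CI -0.87 to 0.93, adjusted p = 0.996) with Ddx41+/-, turning to -0.097 without mouse 32 and to -0.15 without mouse 47. Spns3 was also the last of the 7 inside the rule, at an adjusted p of 0.0400 in the mice of the choice, and the first neighbour outside it was Slc2a4, a glucose transporter gene at 0.0715. By fold, Larp1 (1.58-fold) was the last inside, and 2 neighbours met the adjusted p but not the fold: Alkbh5 (1.34-fold higher, adjusted p = 0.0214) and Zfp39 (1.33-fold lower, adjusted p = 0.0371).

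**Figure D2:**
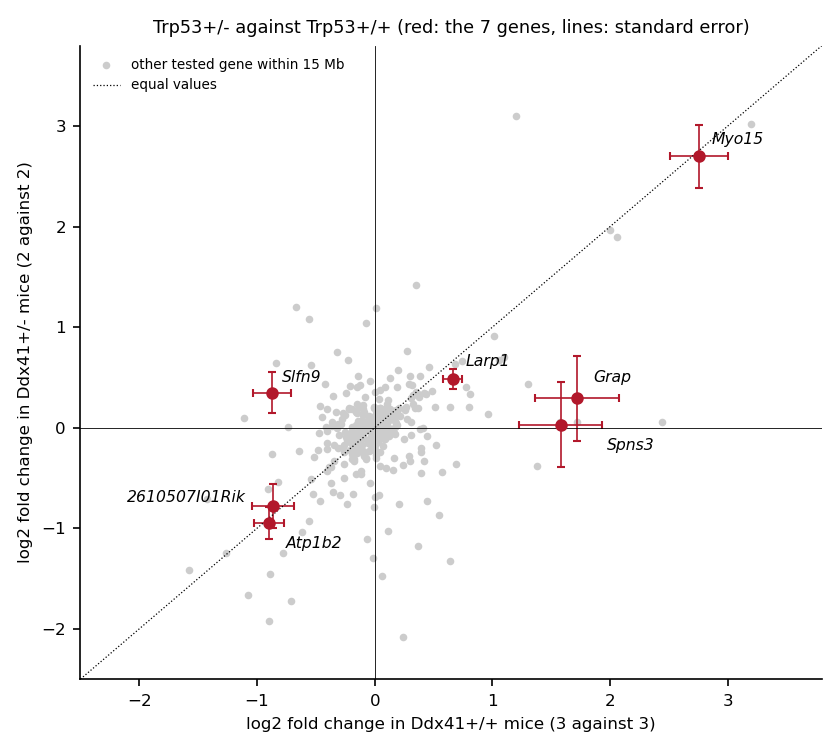
Log2 fold change of Trp53+/- against Trp53+/+ in Ddx41+/+ mice (x axis, the comparison that chose the 7 genes) and in Ddx41+/- mice (y axis), for the 7 genes (red, with standard errors) and the other tested genes within 15 Mb (grey), with the line of equal values dotted. Myo15, Larp1, Atp1b2 and 2610507I01Rik lie near the line, Grap and Spns3 lie near 0 on the y axis, and Slfn9 lies on the other side of 0.

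B cell markers were lowest in the same mice as Grap and Spns3. The summed CPM of 9 B cell markers, those of a list of 10 that the table holds and none of them at 0 in any library, was 43.5 to 89.5 in the Ddx41+/+ Trp53+/+ mice, 112 to 178 in the Ddx41+/- Trp53+/+ mice, 152 to 198 in the Ddx41+/+ Trp53+/- mice and 153 to 174.5 in the Ddx41+/- Trp53+/- mice. With Ddx41+/+, 9 of 9 were higher in Trp53+/- and 5 passed the limits, at a median log2 fold change of 1.25. With Ddx41+/-, 8 of 9 were higher, at a median of 0.25, and none passed by edgeR or by DESeq2 or had an unadjusted p under 0.05. The genes whose log2 CPM ran closest to Spns3 over the 10 mice were Ptprcap (Pearson r = 0.969), which encodes a partner of the leukocyte phosphatase CD45, and Tnfrsf13c (r = 0.956), which encodes a B cell survival receptor. Those closest to Grap were Arl5c (r = 0.963) and Fcmr (r = 0.946), the latter a receptor for IgM. These correlations are descriptions over 10 libraries that share a sort and differ in depth. Summed markers of T and NK cells were at 7.97 to 12.3 CPM with Ddx41+/+ Trp53+/+ and at 11.6 to 18.6 CPM in the other 7 mice. In the mice of the choice 8 of 8 were higher in Trp53+/-, 2 of them with an unadjusted p under 0.05, whereas with Ddx41+/- 1 of 8 was higher and none had such a p. Summed macrophage and monocyte markers were at 317 to 372 CPM in the Ddx41+/+ Trp53+/- mice and at 344 to 616 CPM in the other 7, and 8 of 9 had an unadjusted p under 0.05 in the mice of the choice, against none with Ddx41+/-. Summed neutrophil markers were higher than any of these sums, at 4579 to 7862 CPM over the 10 mice. Megakaryocyte and platelet markers summed to 36.6 to 50.1 CPM. Each sum covers its own list of genes, so the sums do not measure cell shares. No marker of T, NK, macrophage, neutrophil or megakaryocyte lists was called by edgeR or DESeq2 in either comparison. The part of these other cells' RNA in the values of Grap, Spns3 and Slfn9 was not tested.

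**Figure D3:**
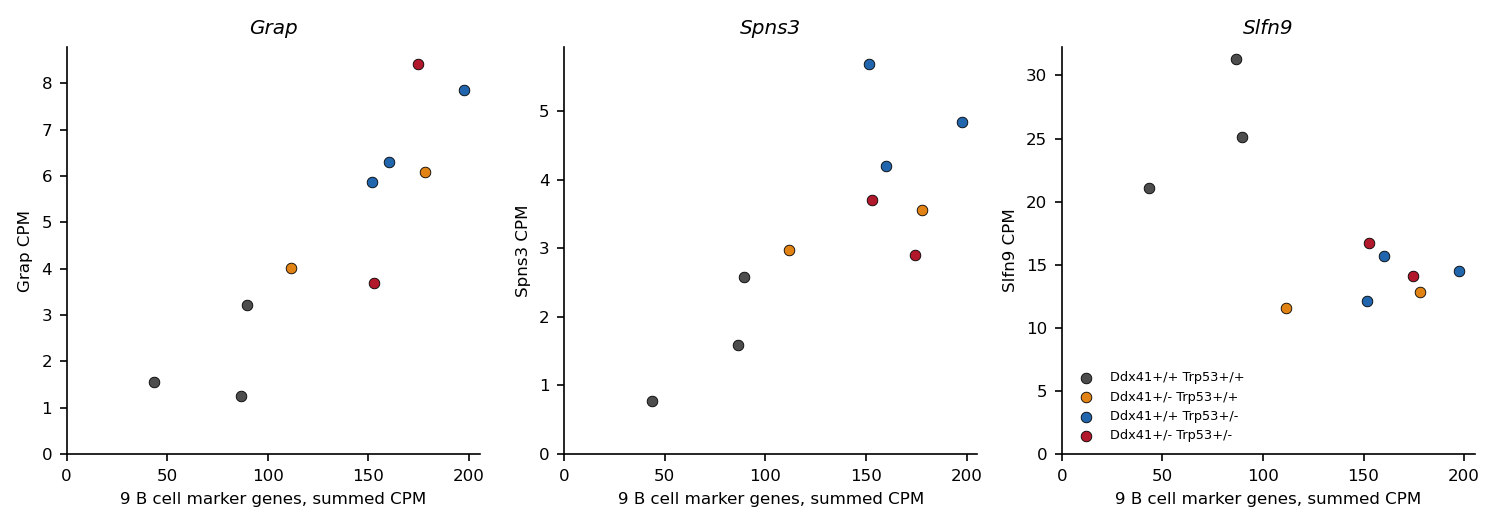
CPM of Grap, Spns3 and Slfn9 (y axes, linear from 0) against the summed CPM of 9 B cell marker genes (x axis) in each of the 10 mice, colored by donor genotype. The 3 Ddx41+/+ Trp53+/+ mice have the lowest marker sums (43.5 to 89.5), the lowest Grap and Spns3 and the highest Slfn9, and the Trp53 genotypes of the Ddx41+/- mice lie among the remaining points.

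The closest patterns to the remaining genes over the 10 mice, again with no test, included Irgm2 and Igtp. Larp1 ran closest to Irgm2 (r = 0.954) and Sit1 (r = 0.935), a lymphocyte adaptor gene on chromosome 4. Sit1 was scarce, with genotype means of 0.21 to 1.24 CPM, so its r rests on few reads. Myo15 ran closest to Ccser2 on chromosome 14 (r = 0.968) and to Igtp (r = 0.967). Ccser2 had log2 fold changes of 0.93 with Ddx41+/+ and 0.89 with Ddx41+/-. Atp1b2 ran closest to Qars (r = 0.953), a tRNA synthetase gene on chromosome 9, and to Suv420h2 (r = 0.933), a histone methyltransferase gene on chromosome 7. For 2610507I01Rik these were 1110008F13Rik (r = 0.941) and Lage3 (r = 0.905), and for Slfn9 they were Nt5c2 (r = 0.950) and Nars2 (r = 0.934), none of these 4 on chromosome 11.

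Among the 349 neighbours within 15 Mb, 2 passed the limits in each comparison (0.573%, against 0.912% of all genes with Ddx41+/+ and 0.169% with Ddx41+/-), and in both cases these were Irgm2 and Igtp, which encode interferon-inducible GTPases of the defence against intracellular pathogens. The share with Ddx41+/+ is what remained after the 7 chosen genes were taken out. Irgm2 was at 12.2 to 26.7 CPM in the 5 Trp53+/+ mice and at 151 to 199 CPM in the 5 Trp53+/- mice. Its log2 fold changes were 3.19 (SE 0.19) with Ddx41+/+ and 3.02 (SE 0.24, adjusted p = 9.95e-06) with Ddx41+/-. Igtp was at 34.9 to 61.8 CPM and at 165 to 216 CPM, with values of 2.06 (SE 0.17) and 1.89 (SE 0.21, adjusted p = 1.73e-04). Their annotated spans overlap by 7974 bases on the same strand, so reads there could be counted for neither or either. Larp1, Irgm2, Igtp, 2610507I01Rik and Myo15 all lie 9.05 to 11.5 Mb before Trp53.

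The neighbours with a low p in both sets of mice were mostly in that stretch. An unadjusted p under 0.05 in both comparisons was found for 8 of 349 neighbours (2.29%) and for 126 of all 11846 genes (1.06%), with the same direction in 8 of the 8 and in 112 of the 126. One of these comparisons is the one that the choice used, and 2 of the 8, Irgm2 and Igtp, met its rule, so these counts are a description. The stretch of 2.55 Mb from Larp1 to Alkbh5 held 46 tested genes, 3 of them chosen genes, and 6 of the 8 neighbours: Irgm2, Igtp, Alkbh5, Cnot8, Zfp39 and Gid4. This stretch was drawn after the values were seen. Cnot8, a subunit of the CCR4-NOT deadenylase 42.1 kb after Larp1, had log2 fold changes of 0.38 (SE 0.10) and 0.51 (SE 0.13, adjusted p = 0.200). Zfp39, a zinc finger gene, was lower at -0.41 (SE 0.09) and -0.43 (SE 0.11, adjusted p = 0.230), and Gid4, a ubiquitin ligase subunit gene, was higher at 0.35 (SE 0.10) and 0.35 (SE 0.12, adjusted p = 0.695). Apart from Irgm2 and Igtp, none of the 8 passed the adjusted limit with Ddx41+/-. The other two, Specc1 and E130309D14Rik, lie 7.36 Mb before and 5.03 Mb after Trp53.

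By distance from Trp53, leaving out Trp53 and the 7 genes, the measures differed in their order. In the Ddx41+/- mice, the share of neighbours with an unadjusted p under 0.05 was 20.8% of 48 genes at 15 to 10 Mb before Trp53, 7.69% of 52 at 10 to 5 Mb before it and 0 of 31 in the 5 Mb before it. Beyond Trp53 it was 3.57% of 84 genes in the first 5 Mb, 3.66% of 82 in the next and 11.5% of 52 at 10 to 15 Mb, against 5.41% of all genes. In the mice of the choice, the 7 genes were taken out because of their p. There the shares in the same 6 steps were 16.7%, 21.2%, 9.68%, 13.1%, 4.88% and 5.77%, against 9.44% of all genes. The direction was the same in both comparisons for 69.2% of the 65 neighbours within 1 Mb, 66.1% of the 115 within 5 Mb, 57.5% of the 134 at 5 to 10 Mb and 62.0% of the 100 at 10 to 15 Mb, against 57.8% of all genes. Within 1 Mb of Trp53, 1 of 65 neighbours had an unadjusted p under 0.05 with Ddx41+/- (1.54%) and 4 with Ddx41+/+ (6.15%). None of the 65 passed the limits by edgeR or DESeq2 in either comparison. The median absolute log2 fold change in the 6 steps ran from 0.14 to 0.20, against 0.14 for all genes. Further out on chromosome 11, 6 of 677 genes passed in the mice of the choice (0.886%, against 0.912% of all genes), all higher in Trp53+/- as were 100 of the 108 over all genes, and none by edgeR or DESeq2 in the Ddx41+/- mice, where 35 had an unadjusted p under 0.05 (5.17%). The nearest of the 6 was Ebf1, a B cell transcription factor gene 24.6 Mb from Trp53, at 1.89 (SE 0.28) and 0.48 (SE 0.33, adjusted p = 0.953).

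**Figure D4:**
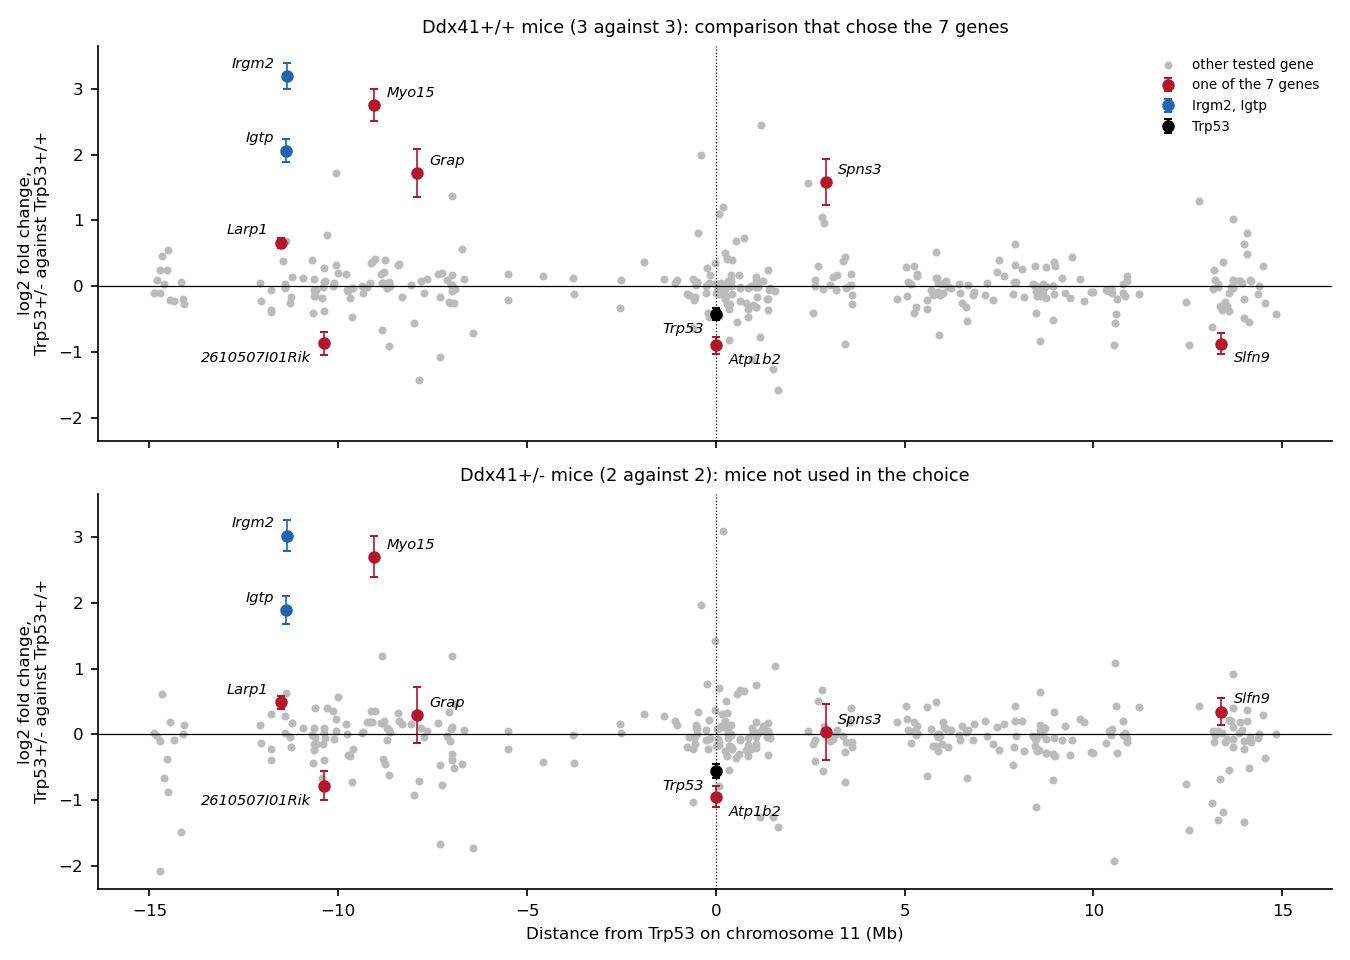
Log2 fold change of Trp53+/- against Trp53+/+ (y axis) by distance from Trp53 along chromosome 11 in Mb (x axis) for every tested gene within 15 Mb, in the Ddx41+/+ mice (top) and the Ddx41+/- mice (bottom), with standard errors on the named genes. Irgm2, Igtp, Larp1, 2610507I01Rik and Myo15 lie 9.05 to 11.5 Mb before Trp53 with like values in both panels, whereas Grap, Spns3 and Slfn9 lie near or past 0 in the bottom panel.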

How the data were processed

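R2 cells from 10 recipient mice in 4 donor genotypes were analysed, grouped by the labels. The deposited values are raw counts of reads by gene symbol, which the authors did not normalize, in a table named as leaving out mice 35 and 45, which are not analysed here. Per the submitters' notes, reads were checked with FastQC 0.11.7, aligned to mm10 with HISAT2 2.0.5 and counted with featureCounts 1.5.2. The annotation and strand setting are not given in the sources used here.

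The counts were fitted with edgeR 4.0.16 (R 4.3.3): filterByExpr by genotype, TMM scaling, and a quasi-likelihood fit with 1 mean per genotype over all 10 mice. P-values are two-sided and adjusted over 11846 genes by the Benjamini-Hochberg method. The fit was tested on simulated counts for the Ddx41+/- comparison over 11846 genes. Mice are the replicates, 2 or 3 per genotype, and whether they had separate donors is not stated. Positions of all but 90 of 24421 genes came from GENCODE M21 or RefSeq tables of GRCm38, the build of mm10. Genes named beyond the 7 were the nearest tested genes, the called neighbours, those at the rule's edges, and the 2 with the highest Pearson r to each gene. Gid4, Specc1 and E130309D14Rik were named after their values were seen. The 7 genes and all lists were chosen with earlier results of these data known. Alternatives were DESeq2 1.42.0, other scaling, filters, windows and tests, and leaving out each mouse.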

Additional observations from a re-analysis of the deposited data

Results flagged for a closer look

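Slfn9 had differences of opposite direction in the 2 comparisons: both Ddx41+/- Trp53+/- mice were above both Ddx41+/- Trp53+/+ mice, and all 3 Ddx41+/+ Trp53+/- mice were below all 3 Ddx41+/+ Trp53+/+ mice. The log2 fold change with Ddx41+/- minus that with Ddx41+/+ was 1.22. This difference was not tested, because one of its terms chose the gene. Genotypes had 2 or 3 mice, too few for a check of single mice that stand apart.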

How the results depend on the processing

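No paired analysis was possible because the mouse numbers are not shared between genotypes. With Ddx41+/-, 20 genes were called, against 37 by DESeq2, 37 in a fit of the compared genotypes only, 51 by a likelihood ratio test, 67 with no filter on low counts and 13 to 24 with 1 mouse left out, the lowest without mouse 34. Of the 7 genes, 2 were called, and 1 to 2 with 1 mouse left out, with 1 (Myo15) without mouse 32 or mouse 46. Of the neighbours, 2 were called, against 4 with no filter, 4 by the likelihood ratio test, 0 of 115 within 5 Mb and 2 to 2 with 1 mouse left out. Direction turned for Grap without mouse 46 (-0.42, in a range of -0.42 to 0.78) and for Spns3 without mouse 32 (-0.097) or mouse 47 (-0.15, in a range of -0.15 to 0.19). The cause was not tested. Every other log2 fold change of the 7 genes and of Trp53 kept its direction in all 16 settings. In the mice of the choice, where every value kept its direction, the adjusted p was under 0.05 in 16 of 16 settings for Larp1, Myo15 and Atp1b2, 14 for Slfn9, 11 for Grap and 2610507I01Rik and 6 for Spns3, whose value was 2.10 without mouse 10. That comparison chose the 7 genes by their adjusted p, so these counts of settings are a description and lend the genes no support. Depth limits Spns3 and Grap, which had 16 to 49 and 18 to 61 reads in the Ddx41+/+ Trp53+/+ mice.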
